A study of Rattus norvegicus with 105 samples.

Results

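The collagen chain genes were followed in rat gastrocnemius, the large calf muscle, around implanted metal pellets. A member was any probe set whose single annotated symbol was Col, a type number, the letter a and a chain number. This rule found 20 genes among the 14852 genes with a single symbol, each on 1 probe set; tests ran over all 22954 probe sets. They were 8 fibrillar chains (Col1a1, Col1a2, Col2a1, Col3a1, Col5a1, Col5a3, Col11a1, Col11a2), 2 basement membrane chains (Col4a1, Col4a4) and 10 others (Col6a2, Col8a1, Col9a1, Col9a2, Col13a1, Col14a1, Col15a1, Col18a1, Col23a1, Col26a1). The RefSeq gene table lists 44 such rat genes, and the other 24 (Col4a2, Col5a2, Col6a1, Col6a3 and Col12a1 among them) were on no probe set named here and were not analysed.

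All animals were male Sprague-Dawley rats, bought at about 30 days of age and kept for at least 2 weeks before surgery. Each carried 4 cylinders of 1 metal, 1 mm wide and 2 mm long, 2 in each gastrocnemius, for 1, 3, 6 or 12 months. The metals were tungsten, nickel, cobalt, iron, copper, aluminum, lead and depleted uranium, with tantalum as the implanted control, so every group had surgery and a foreign body. Each of the 35 groups had 3 Clariom S Rat arrays, and each array held RNA pooled from 2 to 3 animals. A 12-month nickel group was not analysed here. The month groups were separate cohorts, so time since surgery, age and cohort cannot be told apart in any comparison of months. No untreated muscle was among the groups.

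Collagens are built from 3 chains wound into a triple helix. Fibrillar types I, III, V and XI assemble outside the cell into the fibrils that give connective tissue its strength, and in muscle they form the sheaths around fibres and bundles and the scar or capsule around a foreign body. Type IV forms the sheet-like network of basement membranes around muscle fibres and capillaries, type VI forms beaded filaments between basement membrane and fibrils, and other types decorate fibrils, link membranes to matrix or span the cell membrane. The chains are hydroxylated, folded and chaperoned in the endoplasmic reticulum, trimmed outside the cell, crosslinked by lysyl oxidases and removed by proteases.

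Promoter windows are shown for 3 members whose levels moved over the year and with nickel (Col1a2, Col4a1, Col8a1) and for 1 that stayed among the steadiest (Col9a1). Col8a1 and Col9a1 lay below the brightest background control on all or nearly all arrays. RefSeq's table for assembly GRCr8 had a window, 250 bases before to 50 after the annotated start, for 15 of the 20 members. Capitals mark the motifs, searched on both strands. These were the TATA box as TATAAA, then the box CCAAT, which reads as ATTGG where it lies on the minus strand, and the GC box GGGCGG, which there reads as CCGCCC. The windows are Col1a2 at chr4:33518307-33518606, Col4a1 at chr16:84885347-84885646, Col8a1 at chr11:56246532-56246831 and Col9a1 at chr9:34081114-34081413, all on the plus strand and printed 5′ to 3′.
Col1a2: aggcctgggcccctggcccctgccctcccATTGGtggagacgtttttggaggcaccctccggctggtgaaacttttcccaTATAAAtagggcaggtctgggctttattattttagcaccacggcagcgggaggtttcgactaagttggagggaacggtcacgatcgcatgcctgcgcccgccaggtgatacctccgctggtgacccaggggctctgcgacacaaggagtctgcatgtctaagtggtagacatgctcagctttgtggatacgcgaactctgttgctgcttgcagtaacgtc
Col4a1: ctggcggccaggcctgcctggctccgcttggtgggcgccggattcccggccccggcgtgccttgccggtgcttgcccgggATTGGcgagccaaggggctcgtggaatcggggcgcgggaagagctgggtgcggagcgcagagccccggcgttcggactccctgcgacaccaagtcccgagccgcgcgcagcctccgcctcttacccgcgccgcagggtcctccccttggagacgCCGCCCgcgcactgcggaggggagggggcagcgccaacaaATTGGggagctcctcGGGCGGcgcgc
Col8a1: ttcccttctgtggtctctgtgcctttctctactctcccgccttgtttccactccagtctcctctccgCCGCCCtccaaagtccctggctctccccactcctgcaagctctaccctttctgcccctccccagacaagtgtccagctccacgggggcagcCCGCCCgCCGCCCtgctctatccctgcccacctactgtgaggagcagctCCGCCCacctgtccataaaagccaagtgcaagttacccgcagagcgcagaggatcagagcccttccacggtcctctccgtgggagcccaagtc
Col9a1: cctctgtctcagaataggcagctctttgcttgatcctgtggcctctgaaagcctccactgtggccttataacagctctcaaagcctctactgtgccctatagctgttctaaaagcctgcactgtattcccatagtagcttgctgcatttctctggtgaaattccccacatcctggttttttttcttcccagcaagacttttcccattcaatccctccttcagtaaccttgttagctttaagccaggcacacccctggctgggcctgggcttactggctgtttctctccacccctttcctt
The Col1a2 window held a TATAAA 170 bases and a CCAAT 221 bases before the annotated start. The Col4a1 window held 2 CCAAT and 2 GGGCGG, the Col8a1 window held 4 GGGCGG, and the Col9a1 window held none of these motifs. Windows not shown did not follow this split. Col11a1 and Col23a1, also among the steadiest, held 3 GGGCGG each, and Col11a1 held 2 CCAAT as well. Col15a1, which fell over the year, held none of the motifs. A link between motifs and levels was not tested. Over all 33469 windows of the table, 14.2% held TATAAA, 37.5% CCAAT and 33.1% GGGCGG. Among the 15 member windows the counts were 2, 4 and 8. The annotated start of Col4a1 lies 77 bases from that of Col4a2, which runs on the opposite strand, so their windows overlap by 176 bases; only Col4a1 had a named probe set.

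Values are the deposited log2 levels, where a difference of 1 is a 2-fold change; levels of different genes come from different probes and are not set against each other. All 20 members lay above the median of the array's own 23 background control probe sets on every array. Against the brightest of those controls, Col1a1, Col1a2, Col3a1 and Col5a1 lay above it on every array. Col2a1, Col4a4, Col8a1, Col9a2, Col11a1, Col13a1, Col23a1 and Col26a1 lay above it on none, so their values sit closer to background. Muscle markers were high on every array: Acta1, the actin of skeletal muscle fibres, ran from 13.44 to 14.13 and Ckm, muscle creatine kinase, from 12.58 to 13.49. No array had a mean correlation with the others below 0.97, and no pair of arrays had identical values.

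The first pattern across the 35 groups was one of time. The mean of the 3 arrays spanned 2.92 for Col1a1, the alpha-1 chain of type I collagen, from 12.13 in copper muscle at 1 month to 9.21 in tantalum muscle at 12 months. The alpha-1 chain of type III, Col3a1, spanned 2.81, from 11.72 in copper at 1 month to 8.91 in tungsten at 12 months. Among the non-fibrillar chains, Col14a1, which coats fibrils, spanned the widest range, 2.10. The steadiest members were Col11a1 at 0.41 and Col9a1 and Col23a1 at 0.44 each, beside within-group SDs of 0.18, 0.17 and 0.17. Col11a1 and Col23a1 lay above the brightest background control on 0 arrays and Col9a1 on 2. Their steadiness may therefore be that of background, which was not tested.

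**Figure D1:**
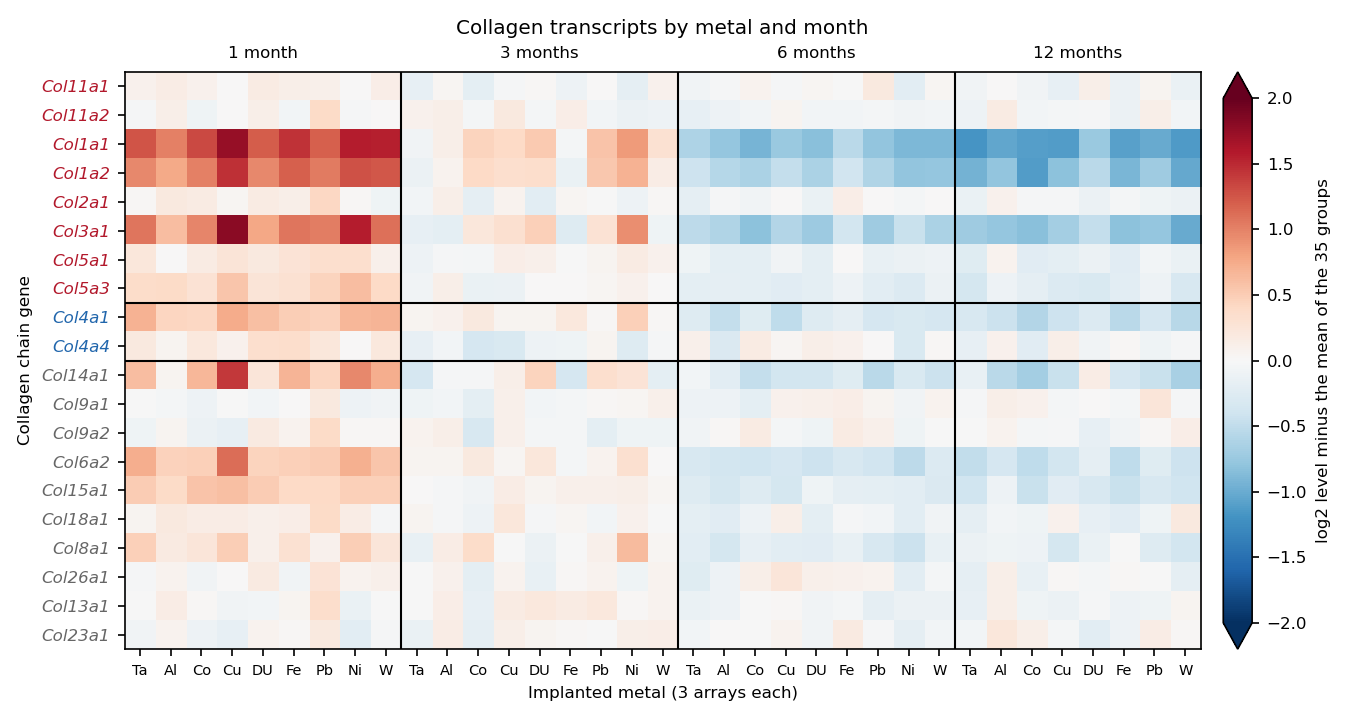
Each cell is a group's log2 level (mean of 3 arrays) minus the mean of the 35 groups for that gene; columns are metals within each month and rows are the 20 collagen chain genes, with names coloured by class. Col1a1, Col1a2 and Col3a1 lie highest at 1 month and are lower at 6 and 12 months than at 1 and 3 months in every metal that has these months, while rows such as Col9a1 and Col23a1 stay near 0.

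For type I collagen, the main fibril former of muscle connective tissue, every array at 1 month lay above every array at 12 months, while neighbouring months overlapped. Over the 24 arrays of the 8 metals with all months, tantalum included, Col1a1 ran from 11.05 to 12.55 with a median of 11.67 at 1 month. It ran from 9.72 to 11.56 (median 10.61) at 3 months and from 9.10 to 10.10 (median 9.61) at 6 months. At 12 months it ran from 8.89 to 9.82 (median 9.32), below the whole range at 1 month. The difference of 12 minus 1 month was -2.39 ± 0.09 (SE), a 5.25-fold lower level (limma adjusted p = 6.39e-37), the most negative difference of the 22954 probe sets. The alpha-2 chain, Col1a2, ran from 10.94 to 12.35 (median 11.61) at 1 month and from 9.12 to 10.19 (median 9.66) at 12 months, and the difference was -1.94 ± 0.09, 3.83-fold lower (limma adjusted p = 5.6e-32). Again no array at 12 months reached the lowest array at 1 month.

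Col3a1, whose type III fibrils are abundant in young and healing tissue, ran from 10.25 to 12.29 (median 10.90) at 1 month and from 8.70 to 9.88 (median 9.18) at 12 months. Its difference was -1.81 ± 0.08, 3.51-fold lower (limma adjusted p = 6.34e-32). Type V chains, which start and limit fibril growth, changed less: Col5a3 fell by 0.60 (SE 0.05) and Col5a1 by 0.34 (SE 0.04), each past the threshold. The 24 arrays of Col5a3 at 1 month all lay above those at 12 months, whereas those of Col5a1 overlapped (lowest 8.28 at 1 month, highest 8.72 at 12 months). The chains best known from cartilage moved least among the fibrillar class: Col2a1 fell by 0.19 and Col11a1 by 0.15, and Col11a2 had a difference of -0.07 that did not pass (limma adjusted p = 0.187).

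**Figure D2:**
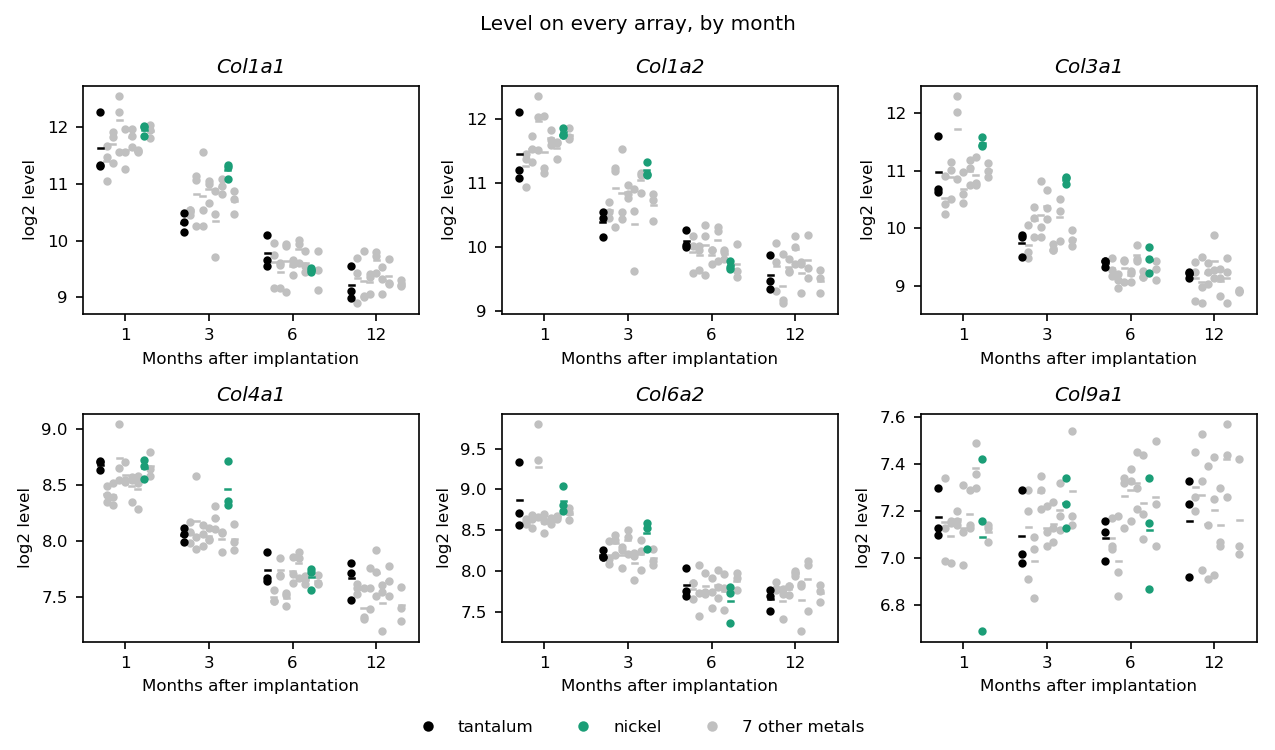
Points are single arrays and bars are group means of log2 level for 6 genes at 1, 3, 6 and 12 months (evenly spaced on the axis), with tantalum in black, nickel in green and the other 7 metals in grey. Col1a1, Col1a2, Col3a1, Col4a1 and Col6a2 step down from month to month until 6 months with all metals together, Col1a1 from a median of 11.67 to 9.61, while Col9a1 stays between 6.69 and 7.57.

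Of the 2 basement membrane chains, Col4a1, the chain present in nearly all basement membranes, ran from 8.29 to 9.04 (median 8.54) at 1 month and from 7.20 to 7.92 (median 7.58) at 12 months, without overlap. Its difference was -1.0 ± 0.04 (limma adjusted p = 7.22e-34). Col4a4, a chain of the more restricted network known from kidney and a few other sites, ran from 5.29 to 6.10 at 1 month and from 5.14 to 5.92 at 12 months. It fell by 0.25 (SE 0.07, limma adjusted p = 0.00132), with wide overlap and near background.

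Among the 10 other chains, 5 fell and none rose. Col14a1 fell by 0.99 (SE 0.10), although its arrays overlapped (7.57 to 9.95 at 1 month, 6.85 to 8.13 at 12 months). Col6a2, a chain of the type VI filaments that anchor muscle fibres to the surrounding matrix, fell by 0.98 (SE 0.06) and ran from 8.47 to 9.80 and then from 7.26 to 8.12. Col15a1, a multiplexin of the zone between basement membrane and fibrils, fell by 0.81 (SE 0.05) from 7.26 to 7.98 down to 6.44 to 7.22. Neither of these last 2 overlapped between 1 and 12 months. Col8a1, a short-chain network former known from vessel walls, fell by 0.44 (SE 0.07), and Col18a1, the second multiplexin and source of endostatin, by 0.21 (SE 0.05). The transmembrane chains Col13a1 and Col23a1, the type IX chains Col9a1 and Col9a2, which decorate cartilage fibrils, and Col26a1 had differences from -0.11 to 0.05, none past the threshold.

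Counted by class, 7 of 8 fibrillar, 2 of 2 basement membrane and 5 of 10 other chains were lower at 12 than at 1 month, 14 of 20 in all, and none was higher. Over all probe sets 20.7% were lower in that comparison and 23.4% higher. The median difference was -0.47 over the fibrillar, -0.62 over the basement membrane and -0.16 over the other chains, beside 0.02 over all probe sets. Only Col1a1, Col1a2 and Col3a1 were at least 2-fold lower and past the threshold, as were 0.139% of all probe sets. For 7 members (Col1a1, Col1a2, Col3a1, Col4a1, Col5a3, Col6a2, Col15a1) all 24 arrays at 1 month lay above all 24 at 12 months, which held for 0.27% of all probe sets. In bulk muscle, fewer collagen-making cells and less collagen RNA per cell cannot be told apart.

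The background moved in the same direction by a small amount. The 23 control probe sets were all lower at 12 than at 1 month, by -0.23 to -0.10, a size that includes the changes of Col18a1, Col2a1 and Col11a1 and lies next to that of Col4a4. With the mean of the controls as a covariate, an alternative chosen after seeing the data, Col18a1 (-0.11, limma adjusted p = 0.185), Col2a1 (-0.13, limma adjusted p = 0.0855) and Col4a4 (-0.13, limma adjusted p = 0.248) no longer passed and Col11a1 was at 0.00 (limma adjusted p = 0.964). The other 10 calls held.

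**Figure D3:**
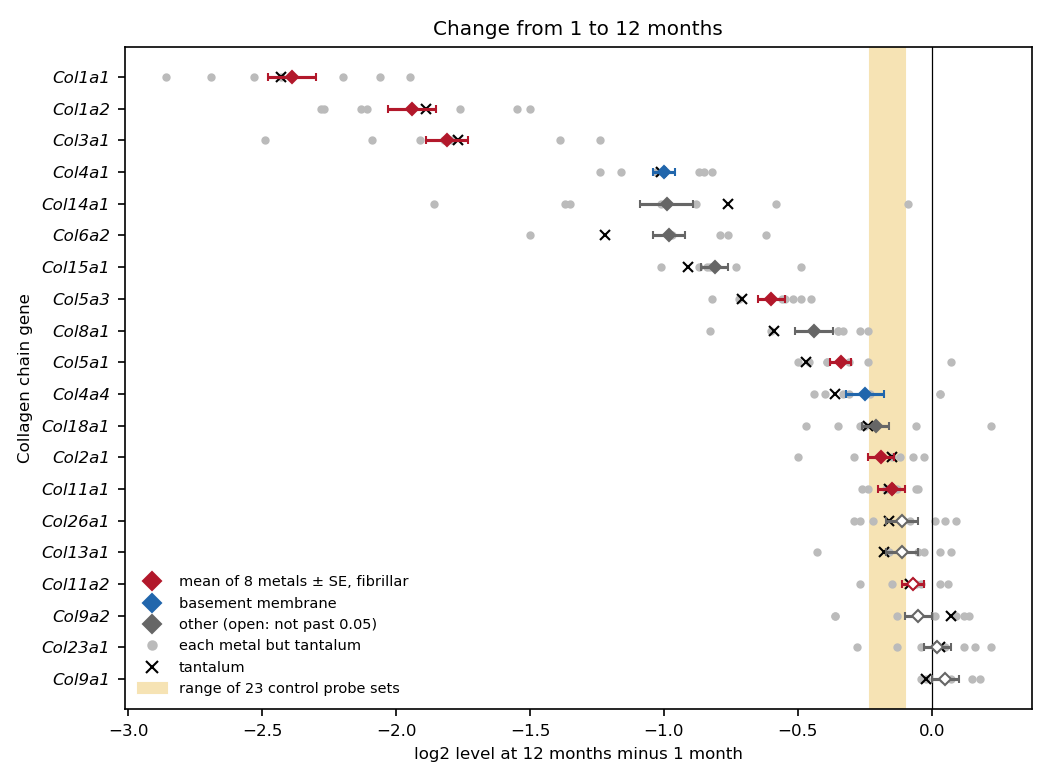
Diamonds are the log2 level at 12 months minus that at 1 month, as the mean of 8 metals with its standard error, coloured by class and open where the adjusted p was not below 0.05; grey points are the 7 metals other than tantalum, crosses are tantalum, and the band spans the 23 control probe sets. Col1a1, Col1a2 and Col3a1 lie far to the left of the band, from -2.39 to -1.81, and the lowest 6 rows have open symbols near 0.

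The fall was spread over the steps up to 6 months. Between 1 and 3 months 13 members were lower and 0 higher, where 10.3% of all probe sets were lower, with Col1a1 at -1.06 ± 0.09, Col3a1 at -0.98 ± 0.08, Col1a2 at -0.88 ± 0.09, Col14a1 at -0.61 ± 0.10 and Col4a1 at -0.47 ± 0.04. Between 3 and 6 months 11 members were lower and 0 higher (20.7% of all probe sets lower), with Col1a1 at -1.05 ± 0.09, Col1a2 at -0.76 ± 0.09 and Col3a1 at -0.70 ± 0.08. In both steps 10 members passed, namely the 9 with the largest yearly fall and Col5a1. Between 6 and 12 months only the 2 type I chains passed, Col1a1 at -0.28 ± 0.09 (limma adjusted p = 0.0483) and Col1a2 at -0.30 ± 0.09 (limma adjusted p = 0.0309), where 1.36% of all probe sets were lower. The 2 fell to 0 without the first or the second replicate of every group, with array weights and without tantalum.

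The control implant on its own showed a fall of type I collagen too. The 3 tantalum arrays read 11.32, 11.34 and 12.27 for Col1a1 at 1 month, 10.48, 10.15 and 10.33 at 3 months, 9.66, 10.10 and 9.56 at 6 months and 9.55, 9.11 and 8.99 at 12 months. No array of a later month reached those at 1 month, and the third array at 1 month stood apart above the others. The fall to 12 months was -2.43 ± 0.25, 5.38-fold (limma adjusted p = 3.71e-11). For Col3a1 the arrays read 10.69, 10.63 and 11.60 at 1 month and 9.22, 9.15 and 9.24 at 12 months, a difference of -1.77 ± 0.23 (limma adjusted p = 4.27e-08). For Col4a1 they read 8.63, 8.71 and 8.70 and then 7.48, 7.81 and 7.72, a difference of -1.01 ± 0.12 (limma adjusted p = 2.22e-09), with all of its arrays at 1 month close together.

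In tantalum 9 members were lower at 12 than at 1 month and 0 higher, where 4.38% of all probe sets were lower: Col1a1, Col1a2, Col3a1, Col4a1, Col5a1, Col5a3, Col6a2, Col8a1 and Col15a1. All 9 also passed over the 8 metals, of which tantalum is 1. At 6 against 1 month 8 members were lower (2.37% of all probe sets), and at 3 against 1 month 5 were (0.135%): Col1a1, Col1a2, Col3a1, Col4a1 and Col6a2. Without the third replicate of tantalum in every month these counts were 5 at 6 months and 0 at 3 months, and without the second replicate 1 member passed at 3 months.

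The difference of 12 minus 1 month was below 0 in all 8 metals for 11 members: Col1a1, Col1a2, Col2a1, Col3a1, Col4a1, Col5a3, Col6a2, Col8a1, Col11a1, Col14a1 and Col15a1. The share of all probe sets for which this held was not counted. Over the 8 metals Col2a1 (-0.19) and Col11a1 (-0.15) lay within the range of the 23 control probe sets, -0.23 to -0.10. For Col1a1 the difference ran from -2.86 in copper to -1.95 in depleted uranium, and for Col3a1 from -2.49 in copper to -1.24 in depleted uranium. Col14a1 was the most uneven, at -1.86 in copper and -0.09 in depleted uranium, whose arrays read 7.76, 8.14 and 8.43 at 1 month and 8.13, 7.80 and 8.12 at 12 months. A moderated F test of whether the fall differed among the 8 metals, added after the data were seen, passed for 0 members and 0.54% of all probe sets. Unadjusted, Col14a1, Col6a2, Col3a1 and Col5a1 were below 0.05, with the smallest limma adjusted p at 0.0906 for Col14a1.

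Against tantalum of the same month, collagens differed in 1 of 31 metal and month comparisons. Of the 620 tests of a member, 5 passed, all for nickel at 3 months and all with nickel higher. An unadjusted p below 0.05 was found in 46, where 5% of tests would be 31. The metals of a month share the same 3 tantalum arrays, so the tests are not independent and 46 beside 31 does not measure an excess. Over all probe sets and the 31 comparisons together 0.443% of tests passed, and with nickel at 3 months 2.82% of probe sets were higher.

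Col3a1 differed most. The nickel arrays at 3 months read 10.87, 10.77 and 10.89 and the tantalum arrays 9.51, 9.88 and 9.86, a difference of 1.09 ± 0.23, 2.13-fold (limma adjusted p = 0.000893). Col1a1 read 11.09, 11.30 and 11.33 against 10.48, 10.15 and 10.33, a difference of 0.92 ± 0.25, 1.89-fold (limma adjusted p = 0.0201). Col1a2 read 11.14, 11.13 and 11.32 against 10.46, 10.15 and 10.55, a difference of 0.81 ± 0.24, 1.76-fold (limma adjusted p = 0.0424). For these 3 fibrillar chains every nickel array lay above every tantalum array. How many of all probe sets were without overlap here was not counted. Tantalum itself lay low among the metals at 3 months for these genes. Over the 8 metals with all months, group means ran from 10.32 to 10.95 for Col1a1, with tantalum the lowest. They ran from 10.37 to 11.04 for Col1a2 (tantalum 10.39) and from 9.66 to 10.39 for Col3a1 (tantalum 9.75). The nickel means of Col1a1, Col1a2 and Col3a1 were 11.24, 11.20 and 10.84.

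Col8a1 read 6.71, 6.33 and 6.49 with nickel and 5.81, 5.61 and 5.78 with tantalum, a difference of 0.77 ± 0.20, 1.71-fold (limma adjusted p = 0.00938). The nickel group at 3 months held its highest mean of the 35 groups, 6.51, and nickel at 6 months its lowest, 5.46. At 3 months tantalum held the lowest mean of the 8 metals with all months, which ran from 5.74 to 6.25. Col4a1 read 8.36, 8.71 and 8.32 with nickel and 7.99, 8.12 and 8.06 with tantalum, a difference of 0.41 ± 0.12, 1.33-fold (limma adjusted p = 0.0262). Neither gene's arrays overlapped between the metals, though the second nickel array carried much of the Col4a1 difference, which was 0.29 without it (limma adjusted p = 0.362).

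The remaining 15 members did not pass with nickel at 3 months. The largest of their differences were 0.60 ± 0.27 for Col14a1, with a 95% interval from 0.06 to 1.14, 0.26 ± 0.13 for Col5a1 and 0.26 ± 0.16 for Col6a2. By class, 3 of 8 fibrillar, 1 of 2 basement membrane and 1 of 10 other chains were higher, and the median difference was 0.21, 0.16 and 0.13, beside -0.02 over all probe sets. The count of 5 fell to 2 in a fit of the arrays of that month alone, to 1 (Col3a1) with adjustment over all 31 comparisons together, and to between 2 and 3 when any 1 of the 6 arrays was left out. Col3a1 passed in each of these refits.

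**Figure D4:**
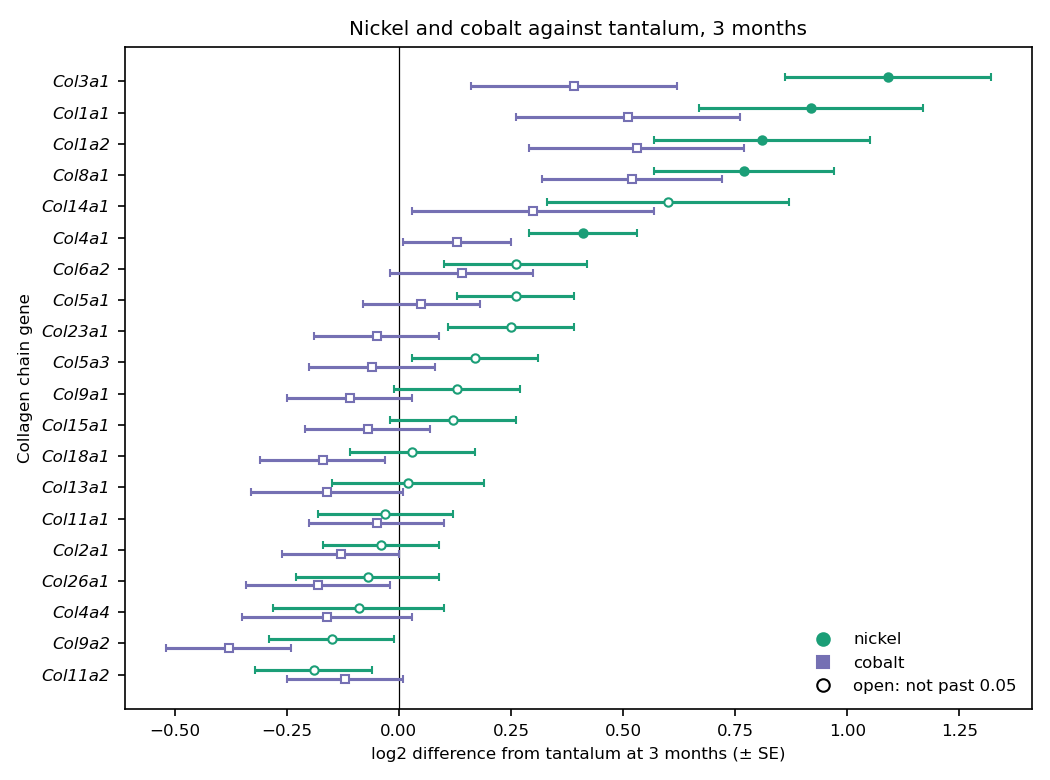
Log2 difference from tantalum at 3 months, with its standard error, for nickel (circles) and cobalt (squares) and the 20 collagen chain genes, with open symbols where the adjusted p was not below 0.05. The 5 filled circles, Col3a1, Col1a1, Col1a2, Col8a1 and Col4a1, lie between 0.41 and 1.09, and every cobalt symbol is open.

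At the other months nickel and tantalum were closer. At 1 month 0 members passed (0.797% of all probe sets did, in either direction): Col3a1 read 11.44, 11.43 and 11.58 with nickel against 10.69, 10.63 and 11.60 with tantalum, a difference of 0.51 ± 0.23 (limma adjusted p = 0.388), and the groups overlapped through the third tantalum array. At 6 months 0 probe sets (0%) passed in limma, and Col3a1, Col1a1 and Col8a1 had differences of 0.06 ± 0.23, -0.29 ± 0.25 and -0.21 ± 0.20, and Col4a4 alone had an unadjusted p below 0.05, at -0.41 ± 0.19. As the mean over 1, 3 and 6 months, Col3a1 was the only member to pass, with nickel higher by 0.55 ± 0.13 (limma adjusted p = 0.00745; 1.84% of all probe sets were higher). It no longer passed without the third nickel replicate or without the first or second tantalum replicate.

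The change between months was tested directly. From 3 to 6 months the nickel difference fell by 0.99 (SE 0.28) for Col8a1 (limma adjusted p = 0.041), the only member to pass where 1.61% of all probe sets were lower. Col1a1 (-1.20 ± 0.36, limma adjusted p = 0.0604), Col1a2 (-1.19 ± 0.35, limma adjusted p = 0.0519) and Col3a1 (-1.03 ± 0.32, limma adjusted p = 0.0904) had larger estimates and larger errors. With a replicate block in each month, 3 members passed: Col8a1 (limma adjusted p = 0.0361), Col1a2 (0.04) and Col1a1 (0.0402). From 1 to 3 months 0 members passed (0.0523% of all probe sets did), with Col8a1 at 0.76 ± 0.28 and Col1a1 at 0.60 ± 0.36.

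**Figure D5:**
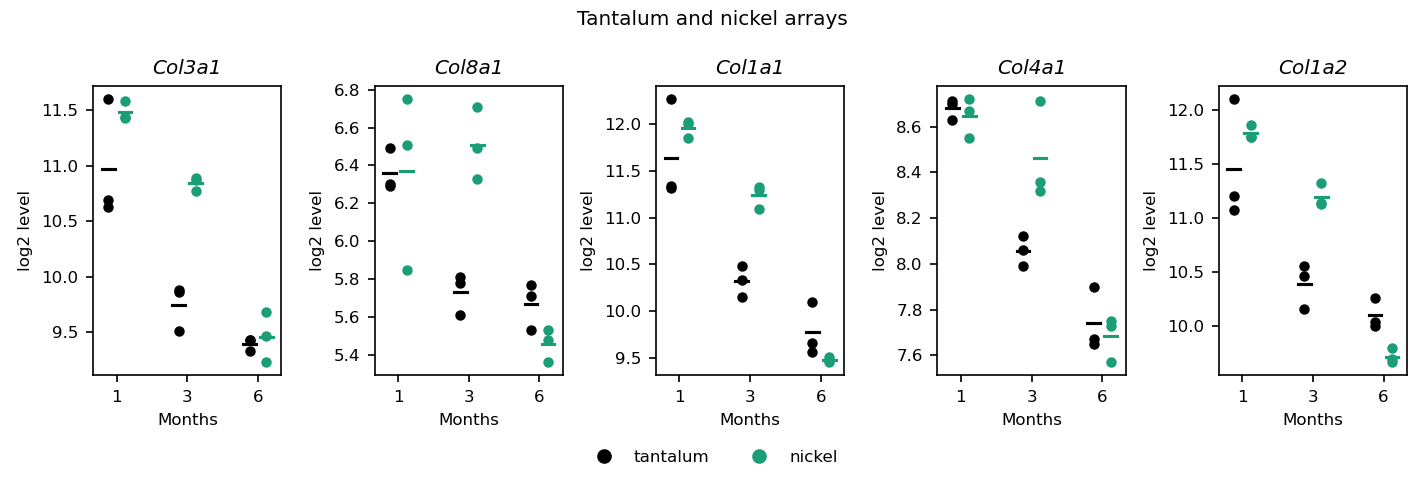
Log2 level on each array (points) and group mean (bars) at 1, 3 and 6 months for the 5 members past the threshold with nickel at 3 months, with tantalum in black and nickel in green. At 3 months the nickel arrays lie above the tantalum arrays in all 5 panels, for Col3a1 at 10.77 to 10.89 against 9.51 to 9.88, and at 6 months the group means differ by no more than 0.38.

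With cobalt at 3 months 0 members passed, against 5.46% of all probe sets. Col8a1 read 6.10, 6.14 and 6.52 against 5.81, 5.61 and 5.78 with tantalum, a difference of 0.52 ± 0.20 (limma adjusted p = 0.128) without overlap; it passed with the arrays of that month alone (limma adjusted p = 0.0163). Col1a1 read 11.08, 10.26 and 11.15 against 10.48, 10.15 and 10.33, a difference of 0.51 ± 0.25 (limma adjusted p = 0.315), with the second cobalt array among the tantalum values. The type IX chain Col9a2 was at -0.38 ± 0.14 (limma adjusted p = 0.129), and passed with the replicate block (limma adjusted p = 0.0393) and with array weights (limma adjusted p = 0.0469). Nickel against cobalt directly gave 0 members (2.2% of all probe sets), with Col3a1 higher in nickel by 0.70 ± 0.23 (95% interval 0.25 to 1.16, limma adjusted p = 0.109). The changes of the cobalt difference gave 0 members from 1 to 3 months (3.66% of all probe sets) and 0 from 3 to 6 months (3.95%).

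With lead at 1 month the members nearest the threshold were chains best known from cartilage. Col9a2 read 7.11, 7.62 and 6.95 with lead and 6.72, 6.78 and 6.77 with tantalum, a difference of 0.47 ± 0.14 (limma adjusted p = 0.0519). Col11a2 read 8.28, 8.40 and 8.10 against 7.76, 7.69 and 8.09, a difference of 0.41 ± 0.13 (limma adjusted p = 0.0532), and Col2a1 read 7.41, 7.68 and 7.43 against 7.15, 7.25 and 6.95, a difference of 0.39 ± 0.13 (limma adjusted p = 0.0763). All lead arrays lay above the tantalum arrays for these 3 genes, of which Col9a2 and Col2a1 lay above the brightest control on 0 arrays. How many of all probe sets were without overlap in this comparison was not counted. Of the other chains known from cartilage, Col11a1 had a group mean of 7.38 with lead and 7.37 with tantalum, and Col9a1 of 7.38 and 7.18. The values near the threshold were not confined to chains known from cartilage. The transmembrane chain Col13a1 (0.34 ± 0.17, limma adjusted p = 0.232) and the multiplexin Col18a1 (0.33 ± 0.14, limma adjusted p = 0.182) also had an unadjusted p below 0.05. Over the 10 other chains the median difference was 0.24, beside 0.01 over all probe sets. No member passed, and 3.02% of all probe sets did. Lead at 1 month held the highest of the 35 group means for Col2a1, Col9a2, Col11a2, Col13a1, Col18a1 and Col26a1. Of 4 cartilage markers with a probe set, 0 passed with lead at 1 month, with a median difference of 0.25, and of 2 skin markers Krt14 was higher by 0.47; their part in these values was not tested.

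Copper at 1 month held the highest group mean for Col1a1, Col1a2, Col3a1, Col4a1, Col6a2, Col14a1 and Col15a1, without a call. Col3a1 read 12.29, 10.85 and 12.02 with copper, so the second array lay among the tantalum values of 10.69, 10.63 and 11.60, and the difference was 0.75 ± 0.23 (limma adjusted p = 0.192; 0.322% of all probe sets passed). Depleted uranium at 3 months had Col14a1 at 0.79 ± 0.27 and Col3a1 at 0.64 ± 0.23, where 0.00436% of all probe sets passed. Lead at 3 months had Col1a2 at 0.66 ± 0.24, where 0.0174% passed. None of these members passed. In 13 of the 31 comparisons no probe set at all passed.

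Genes that make, trim and remove collagen were also among the calls with nickel and over the year. With nickel at 3 months 5 of 17 measured folding and modification genes were higher (2.82% of all probe sets) and 0 lower, with a median difference of 0.24. They were Plod2, a lysyl hydroxylase (1.27 ± 0.22), Fkbp10, a prolyl isomerase (1.04 ± 0.21), Serpinh1, the collagen chaperone HSP47 (0.72 ± 0.15), P4hb, a subunit of prolyl 4-hydroxylase (0.60 ± 0.11) and Ppib, cyclophilin B (0.52 ± 0.13). From 1 to 12 months over 8 metals 11 of the 17 were lower (20.7% of all probe sets), led by Serpinh1 (-1.07 ± 0.05) and Fkbp10 (-0.93 ± 0.07), and 1 was higher (23.4% of all probe sets), the ion channel gene Tmem38b (0.44 ± 0.06). With cobalt at 3 months 3 were higher (Ppib, P4hb and Fkbp10), where 5.46% of all probe sets passed in either direction. With lead at 1 month 4 were lower (Plod1, Plod2, P3h3 and Ppib), where 3.02% passed in either direction.

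Outside the cell, 4 of 8 measured genes of propeptide removal and crosslinking were higher with nickel at 3 months (2.82% of all probe sets). They were the lysyl oxidase relatives Loxl2 (0.96 ± 0.20) and Loxl1 (0.76 ± 0.18), the procollagen C-proteinase Bmp1 (0.50 ± 0.13) and its enhancer Pcolce (0.50 ± 0.14). Over the year 6 of the 8 were lower (20.7% of all probe sets), with Loxl2 at -1.22 ± 0.07 and Pcolce at -0.99 ± 0.05. Of 10 genes of breakdown and uptake 4 were higher with nickel at 3 months (2.82% of all probe sets). These were the inhibitor Timp1 (1.15 ± 0.20), the gelatinase Mmp2 (1.11 ± 0.20), the membrane collagenase Mmp14 (0.92 ± 0.21) and Timp2 (0.57 ± 0.15). Over the year 7 of the 10 were lower (20.7% of all probe sets), with Mmp2 at -1.13 ± 0.07, Mmp14 at -1.0 ± 0.08 and Ctsk, cathepsin K, at -0.96 ± 0.08.

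Receptors and upstream signals gave 0 calls with nickel at 3 months, where 2.82% of all probe sets were higher. Over the year 20.7% of all probe sets were lower and 23.4% higher. Of 6 measured collagen receptors 3 were lower over the year, with the kinase receptor Ddr2 at -0.40 ± 0.07 and Itga1, an integrin chain, at -0.22 ± 0.05. Of 9 fibrogenic signals the median difference with nickel was 0.02, and over the year 6 were lower, with Pdgfa at -0.39 ± 0.05 and Ccn2 at -0.38 ± 0.08, and 1, Tgfbr1, was higher by 0.11 ± 0.04. With cobalt at 3 months 1 of the 9 was higher, Tgfb1 (1.21 ± 0.20), where 5.46% of all probe sets passed in either direction.

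Markers of the cells that could carry these transcripts moved too. Of 9 fibroblast markers 3 were higher with nickel at 3 months (Lum at 1.45 ± 0.24, Thy1 at 0.99 ± 0.21 and Fap at 0.80 ± 0.20), and the mean log2 level over the list was 8.01 to 8.39 on the nickel arrays and 7.43 to 7.70 on the tantalum arrays. Of 6 leukocyte markers 4 were higher, with a list level of 7.28 to 7.65 against 6.20 to 6.92, where 2.82% of all probe sets were higher. With cobalt at 3 months all 6 leukocyte markers were higher, at a list level of 8.30 to 8.75, and 1 of the 9 fibroblast markers was higher, at a list level of 7.63 to 8.09. In that comparison 5.46% of all probe sets passed in either direction. Endothelial (6), smooth muscle (6), tendon (5), cartilage (4) and muscle fibre (8) markers gave 0 calls with nickel at 3 months. The part of any cell type in the nickel result was not tested.

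Over the year 7 of 9 fibroblast, 4 of 5 tendon, 6 of 6 endothelial, 5 of 6 smooth muscle and pericyte and 5 of 6 leukocyte markers were lower at 12 than at 1 month, beside 20.7% of all probe sets. The list level of fibroblast markers was 7.54 to 8.64 at 1 month and 7.12 to 7.73 at 12 months, that of endothelial markers 8.30 to 8.95 and 7.85 to 8.40, that of tendon markers 7.59 to 8.63 and 6.90 to 8.06, and that of leukocyte markers 5.93 to 7.38 and 5.74 to 6.53. Dcn, the fibroblast proteoglycan decorin, fell by 0.34 (SE 0.07), and Tnmd, the tendon marker tenomodulin, by 1.44 (SE 0.13). Muscle fibre markers stayed at 13.28 to 13.40 and 13.07 to 13.42, with 1 of 8 higher and 2 lower, and the cartilage list had 1 of 4 markers higher, Matn1 by 0.21 ± 0.06. The muscle fibre and cartilage counts were near the shares of all probe sets, 23.4% higher and 20.7% lower. The fibroblast, tendon, endothelial, smooth muscle and leukocyte counts lay above the 20.7%. The part of these cell types in the fall of the collagens was not tested.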

How the data were processed

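The deposited values are log2 intensities, 1 per probe set and array, which the authors made by RMA with the oligo package under R 4.0.1, per the submitters' processing notes. Whether all arrays were normalized in 1 run is not given in the sources used here. Of 22977 probe sets, 23 background controls were left out. Symbols came from platform annotation and the RefSeq gene table: 14855 probe sets had 1 symbol and 8099 none. The array design's genome build is not used.

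A limma 3.58.1 model (R 4.3.3) with 1 mean for each of the 35 groups was fitted to all arrays without a filter. It gave 51 comparisons, each adjusted by Benjamini-Hochberg over 22954 probe sets, two-sided, with a threshold of 0.05. The script was tested on simulated data. Arrays are pools, so p-values measure the spread between pools, and the number of arrays limits the precision. Errors beside differences are SEs.

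The members, classes, lists and tests were chosen with earlier results of these data known. Genes named in full were members passing with nickel at 3 months or in the most other comparisons, and in each class those with the widest and steadiest group means. Up to 6 genes of each pathway list with the smallest adjusted p were eligible. Same-numbered arrays of a metal and tantalum deviated together (every correlation above 0.1) in 8 of 8 comparisons at 6 months, 5 of 7 at 12 months and 0 at 1 and 3 months. The alternatives tried were a replicate block, a second quantile normalization, leaving out the dimmest 30% of probe sets, trended and robust eBayes, array weights, smaller fits, joint adjustment and leaving out replicates.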

Additional observations from a re-analysis of the deposited data

Results flagged for a closer look

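Col8a1 met the rule for an effect that differed between time points. The difference between nickel and tantalum muscle was 0.77 at 3 months and -0.21 at 6 months, and the change of that difference was -0.99 (SE 0.28, limma adjusted p = 0.041). At 3 months the arrays did not overlap (nickel 6.33 to 6.71, tantalum 5.61 to 5.81), and at 6 months they ran from 5.36 to 5.53 with nickel and from 5.53 to 5.77 with tantalum. The gene lies below the brightest background control on every array, and no refit without 1 of the nickel or tantalum replicates kept the call.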

How the results depend on the processing

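Of 210 values of single members under an alternative, 177 kept their direction and side of the threshold, 32 kept the direction and no longer passed, and 1 changed sign: Col11a1 from 1 to 12 months, at 0.00 with the control mean as a covariate. The 2 comparisons behind these values differed. With nickel at 3 months 46 values stayed the same and 24 no longer passed. From 1 to 12 months over 8 metals 131 stayed the same and 8 no longer passed. The counts over 8 metals from 1 to 3, 3 to 6 and 1 to 12 months, and from 1 to 12 months in tantalum, stayed within 1.5 times of the reported ones. With nickel at 3 months (5 members) the count was 2 with the arrays of that month alone, 1 with joint adjustment and 2 to 3 without 1 replicate. Over the other 30 metal and month comparisons (0 calls) it was 4 with the replicate block, 3 with a second quantile normalization or array weights, 2 without dim probe sets or within the month and 1 with trended eBayes; most were Col9a2, Col11a2 and Col2a1 with lead at 1 month, and the others Col9a2 and Col8a1 with cobalt at 3 months and Col3a1 with copper at 1 month. These block calls lie at 1 and 3 months, where the numbers did not pair arrays. The nickel difference from 3 to 6 months (1 member) gave 3 with the replicate block or without dim probe sets, 0 with a second quantile normalization and 0 without any 1 replicate. Apart from this count and that of the 30 comparisons, the block changed none by over 1.5 times. In comparisons of months the block was 1 effect per replicate number over all months. Every group holds each replicate number, so the block could change only the errors and not the estimates. From 6 to 12 months (2 members) the count was 1 with a second quantile normalization or trended eBayes, 0 with array weights or without tantalum, and 0 to 2 without 1 replicate. The mean over months with nickel (1 member) gave 0 to 1 without 1 replicate, and tantalum gave 0 to 4 at 3 months (5 reported) and 5 to 8 at 6 months (8 reported). The causes were not tested. Of the 20 members 8 were never above the brightest control, and 3 arrays a group limit the precision.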
